A study of Mus musculus with 6 samples.

Results

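Apoa1, Apoa2, Apoa4, Apoa5, Apob, Apoc1, Apoc2, Apoc3, Apoe and Mttp, the genes for the main apolipoproteins and for the protein that loads lipid onto apoB, were followed in hepatocytes that did or did not express Sox4. They were taken by symbol from the count table, in which all 10 were present among 53599 symbols, and all 10 passed the expression filter that left 12691 genes for testing. The study asked what the transcription factor Sox4 does to mature hepatocytes, and RNA-seq was run on 6 libraries of hepatocytes harvested on day 4 after mice received an adeno-associated virus. The 3 control libraries (EV 1 to EV 3) came from mice given AAV8-TBG-Cre, the empty vector, and the 3 Sox4 libraries (Sox4 1 to Sox4 3) from mice given AAV8-TBG-HA-Sox4, whose HA-tagged Sox4 is joined to Cre through a P2A peptide. Both groups therefore received Cre, and both vectors were driven by TBG, a promoter of hepatocytes. The labels give genotype WT for EV mice and Sox4 for the others, whereas the methods describe male, homozygous Rosa-LSL-Cas9-EGFP mice on C57BL/6J, injected at 4 to 8 weeks of age through the retro-orbital route with 1e12 genome copies of the Sox4 vector. The dose of the control vector behind these libraries was not given in the sources used here. Cre switches on Cas9 and EGFP in such mice, so all groups would carry both.

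The liver packages triglyceride and cholesterol for export in very low density lipoprotein. Microsomal triglyceride transfer protein, the product of Mttp, adds lipid to apoB while apoB is being made, and each particle keeps its single apoB for life. The smaller apolipoproteins exchange between particles: apoA-I and apoA-II are the main structural proteins on the surface of high density lipoprotein, the C apolipoproteins and apoA-V set how fast plasma lipases clear triglyceride, and apoE carries remnants to hepatic receptors. Apoa1, Apoc3, Apoa4 and Apoa5 lie side by side on mouse chromosome 9, and Apoe, Apoc1, Apoc4 and Apoc2 on chromosome 7.

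Transcripts of Apoa1, Apoa2, Apoa5, Apoc1, Apoc3 and Apoe fell in Sox4-expressing hepatocytes, whereas Apob, Mttp and Apoa4 did not pass the test. Apoc2 also passed as lower, but its few counts cannot be taken as a level of its mRNA, for the reason given with its values. Of the 10 genes 7 were lower past an adjusted p of 0.05 (edgeR quasi-likelihood test, Benjamini-Hochberg over 12691 genes), against 26.0% of all tested genes, and 0 were higher, against 29.0%. At an unadjusted p under 0.05 also 0 were higher, as by DESeq2 and by both limma fits. The EV and Sox4 libraries did not overlap for 8 of the 10, against 63.0% of all tested genes. The median log2 fold change of the 10 was -1.05, against 0.04 over all tested genes. Apoc2 is included in the 7, in the 8 and in this median. Under a stricter cutoff, 50 counts on average, Apoc2 was not tested, and 6 members were lower and 0 higher. The median of the members was then -0.85, against 0.02 over all genes tested under that cutoff. Levels are CPM, counts scaled to 1e+06 per library with library sizes adjusted by TMM, which corrects for a few abundant genes taking up reads, and ± gives the SD over 3 libraries. Total counts ran from 15090629 to 16964860 per library. Sox4 itself had 2, 0 and 3 counts in EV 1 to EV 3 and 21697, 15097 and 11816 in Sox4 1 to Sox4 3, as labelled.

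The scaling matters for the weaker changes. After TMM the mean library size of Sox4 was 1.48 times that of EV, although total counts differed 1.07-fold, and with library size alone the median of all tested genes moved from 0.04 to 0.51. Under that scaling 4 of the 10 were lower, Apoa1, Apoa2, Apoc1 and Apoc3, and 1 was higher, Apoa4, while Apob and Mttp lay above 0. Of all 12691 tested genes, 1624 were lower and 6468 higher in that fit. Relative to the median of all genes the 10 had a median of -1.09 under either scaling. A change of scaling shifts all genes by nearly the same amount. These values therefore had to agree and are no check on the fall. In bulk RNA, fewer cells of a type and less RNA per cell cannot be told apart.

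**Figure D1:**
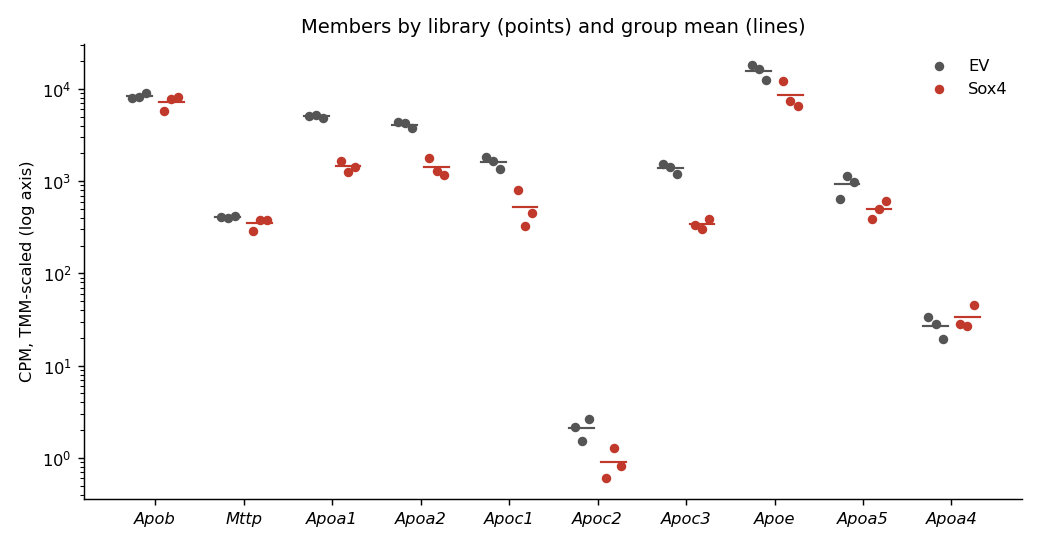
Level of each of the 10 genes in every library, in TMM-scaled CPM on a log axis. Points are single libraries, 3 EV and 3 Sox4, and lines are group means. The Sox4 points of Apoa1, Apoa2, Apoc1 and Apoc3 sit below all EV points, while those of Apob and Apoa4 overlap with EV.

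The promoters of 4 members are shown, Apoa1 and the 3 members whose promoters hold a SOX core or HNF4-type motif. Apoa1, Apoa2 and Apoa5 fell and held neither motif, while Apoe held a SOX core and fell too. Apoa4 and Apob held the HNF4-type letters, Apoa4 also a SOX core, and neither gene passed. Mttp held neither motif and did not pass, and Apoc2 held neither and passed as lower on few counts. Regions outside the promoters were not searched. The relation of motif to change was not tested. Each window runs from 250 bases before to 50 after the RefSeq transcript start, 5′ to 3′ in the direction of transcription (RefSeq, build GRCm38.p6). Capitals mark matches to the SOX core letters ACAAAG or ACAATG or to the HNF4-type letters CAAAGNNCA on either strand. Apoa1 lies at chr9:46228380-46228679, Apoa4 at chr9:46240594-46240893 and Apob at chr12:7977427-7977726, all on the plus strand, and the first of 3 listed starts of Apoe at chr7:19699139-19699438 on the minus strand.
Apoa1: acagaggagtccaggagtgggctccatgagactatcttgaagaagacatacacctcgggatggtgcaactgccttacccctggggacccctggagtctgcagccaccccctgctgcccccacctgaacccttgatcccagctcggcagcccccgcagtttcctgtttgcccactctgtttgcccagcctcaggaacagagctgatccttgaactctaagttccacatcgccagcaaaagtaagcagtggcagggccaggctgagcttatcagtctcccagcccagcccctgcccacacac
Apoa4: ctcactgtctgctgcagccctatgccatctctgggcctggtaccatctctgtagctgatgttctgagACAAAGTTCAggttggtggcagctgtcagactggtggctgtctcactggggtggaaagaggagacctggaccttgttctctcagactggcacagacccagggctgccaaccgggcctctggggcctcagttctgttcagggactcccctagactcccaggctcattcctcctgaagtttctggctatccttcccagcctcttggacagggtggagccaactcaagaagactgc
Apob: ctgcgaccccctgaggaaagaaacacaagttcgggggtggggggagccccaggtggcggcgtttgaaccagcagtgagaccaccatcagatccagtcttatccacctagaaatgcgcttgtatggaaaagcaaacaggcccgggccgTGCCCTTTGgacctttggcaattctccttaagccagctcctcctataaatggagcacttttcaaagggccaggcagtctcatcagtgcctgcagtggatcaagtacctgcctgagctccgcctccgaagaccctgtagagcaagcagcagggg
Apoe: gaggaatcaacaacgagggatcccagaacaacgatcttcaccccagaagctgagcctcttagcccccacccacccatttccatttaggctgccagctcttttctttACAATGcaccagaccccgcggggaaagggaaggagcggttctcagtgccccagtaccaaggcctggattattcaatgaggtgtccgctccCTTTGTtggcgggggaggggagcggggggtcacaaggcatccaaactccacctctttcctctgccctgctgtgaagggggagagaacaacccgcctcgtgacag

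Entries were found for 8 of the 10 genes, all but Apoc1 and Apoc3. A SOX core was present in 2 of the 8, Apoa4 and Apoe, against 28.6% of 32851 promoters of the same length (ACAAAG in 18.7%, ACAATG in 12.6%). The HNF4-type letters were present in Apoa4 and Apob, 2 of the 8, against 6.4% of promoters. In Apoa4 both motifs are the same bases, since ACAAAG and CAAAGNNCA share CAAAG. The TATA box letters TATAAA were present in 4 of the 8, Apoa2, Apoa5, Apob and Apoe, against 13.6%. The Apoa1 window held none of the 4 motifs. A gene with several starts was counted if any of its windows matched, which raises the member counts. The shares over all promoters count every window singly, so members and background are not counted alike.

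Apob, the structural protein of very low density lipoprotein, was among the 3 members that did not pass. It stood at 7918, 8125 and 8945 CPM in EV 1 to EV 3 and at 5712, 7764 and 8288 CPM in Sox4 1 to Sox4 3. The groups overlapped, with Sox4 1 below every other library. The log2 fold change was -0.20 (SE 0.17, adjusted p = 0.375 by edgeR), so the test did not separate 8329 ± 543 from 7255 ± 1361 CPM.

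Mttp, its loading partner, stood at 407, 403 and 424 CPM in EV and at 292, 379.9 and 383 CPM in Sox4. All Sox4 libraries lay below all EV libraries, Sox4 1 by the widest margin, and the log2 fold change of -0.23 (SE 0.13) did not pass (adjusted p = 0.199 by edgeR). Scaled by library size alone, Apob was at 0.27 and Mttp at 0.24, so the sign of neither holds under both scalings, and neither passed. The ratio of Mttp to Apob counts needs no scaling between libraries. Its log2 value was -4.28, -4.33 and -4.40 in EV and -4.29, -4.35 and -4.44 in Sox4, a difference of -0.02 in means of -4.34 ± 0.06 and -4.36 ± 0.07. The exact permutation test gave p = 0.7 (two-sided, 0.7 after adjustment over 9 ratios to Apob), in a design that cannot go below 0.1. Over all 6 libraries this log2 ratio spanned less than that of any other member did over the 3 EV libraries alone.

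**Figure D2:**
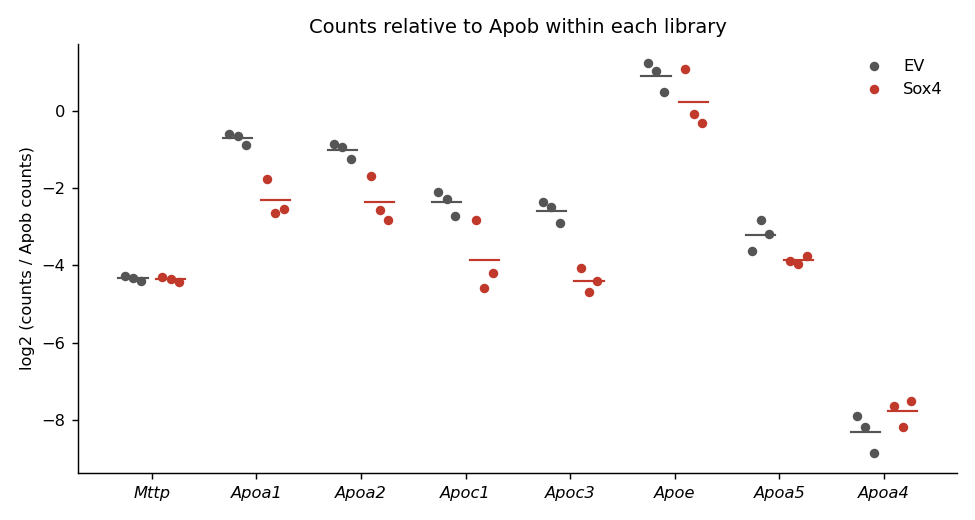
log2 of each gene's counts over the Apob counts of the same library. Points are single libraries and lines group means of 3. The Mttp ratio sits at -4.34 in EV and -4.36 in Sox4, while Apoa1 moves from -0.71 to -2.31 and Apoc3 from -2.59 to -4.39; Apoc2 is left out for its low counts.

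Apoa1 and Apoa2, which encode the main proteins of high density lipoprotein, fell together. Apoa1 stood at 5160.1, 5187 and 4861 CPM in EV and at 1673, 1246 and 1431.5 CPM in Sox4. The Sox4 mean was 28.6% of the EV mean, and the log2 fold change was -1.81 (SE 0.13, adjusted p = 1.69e-05 by edgeR). EV libraries lay close to each other, at 5069 ± 181 CPM.

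Apoa2 stood at 4344, 4245 and 3745 CPM in EV and at 1771, 1304 and 1176 CPM in Sox4. The groups were well apart, and the Sox4 mean was 34.5% of EV. Its log2 fold change was -1.54 (SE 0.19, adjusted p = 1.02e-04 by edgeR). Relative to Apob within each library, Apoa1 was lower by a log2 difference of -1.60 and Apoa2 by -1.34, with no overlap between groups and the smallest p the design allows, 0.1 (exact permutation test, two-sided, 0.15 adjusted).

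Among the C apolipoproteins, Apoc3 showed the largest fall of the 10. Its product holds back lipoprotein lipase and remnant uptake. It stood at 1539, 1437 and 1199 CPM in EV and at 338, 299.9 and 391.6 CPM in Sox4. The Sox4 libraries agreed closely and lay at 24.7% of the EV mean, and its log2 fold change was -2.02 (SE 0.15, adjusted p = 9.32e-06 by edgeR).

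Apoc1, whose product slows lipid transfer and receptor binding, stood at 1849.7, 1658 and 1353 CPM in EV and at 807, 326 and 452 CPM in Sox4. The groups did not overlap, but Sox4 1 was 2.08 times the mean of the other Sox4 libraries. The log2 fold change was -1.62 (SE 0.40, adjusted p = 0.00221 by edgeR), and it ran from -2.06 without Sox4 1 to -1.36 without Sox4 2.

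Apoc2, whose product activates lipoprotein lipase, had 28, 20 and 36 counts in EV and 12, 25 and 16 in Sox4. In the GENCODE M21 annotation 79.5% of its exonic bases are shared on the same strand with Gm44805, a gene model that joins it to Apoc4 and had 1 count in all 6 libraries together. Neither the annotation release behind the counts nor how reads in shared exons were counted was given in the sources used here. These counts therefore cannot be taken as a level of Apoc2 mRNA. The log2 fold change of -1.22 (SE 0.35, adjusted p = 0.0283 by edgeR) passed, but not without EV 1, EV 3, Sox4 1 or Sox4 3 (-1.01 to -1.22, adjusted p from 0.0658 to 0.103 by edgeR).

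Apoe, the ligand for remnant receptors, stood at 18375, 16388 and 12387 CPM in EV and at 12098, 7329 and 6576 CPM in Sox4. Sox4 1 lay just under EV 3, and the other Sox4 libraries lay well below both. The log2 fold change was -0.86 (SE 0.32, adjusted p = 0.0176 by edgeR), with Sox4 at 55.2% of EV. The call was lost without EV 1 (adjusted p = 0.0517 by edgeR), EV 2 (0.0525) or Sox4 2 (0.0727), at log2 fold changes of -0.75, -0.85 and -0.75. Under library size alone Apoe was at -0.39 and did not pass (adjusted p = 0.209 by edgeR).

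Sox4 1 stood above the other Sox4 libraries for Apoe, Apoc1 and Apoc4 on chromosome 7, but not for Apoc2, which had 12 counts there against 25 and 16 (0.576 times their mean in CPM). In it Apoe was 1.74 times, Apoc1 2.08 times and Apoc4 2.26 times the mean of Sox4 2 and Sox4 3. Apoa1 was 1.25 times and Apoa2 1.43 times that mean, Apoc3 was level at 0.978, and Apoa5 (0.701), Apob (0.712), Mttp (0.766) and Apoa4 (0.787) were lower. Sox4 1 also had the most Sox4, at 1088 CPM against 771 and 599. The relation between these was not tested. The log2 ratio of Apoc4 to Apoc1 counts stayed at -2.37 ± 0.15 in EV and -2.41 ± 0.08 in Sox4, whereas that of Apoc1 to Apoe went from -3.27 ± 0.07 to -4.09 ± 0.35. These pairs were chosen after their values were seen and are given without a test.

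Apoa5, whose product speeds the clearance of triglyceride, stood at 635, 1153 and 979.8 CPM in EV and at 389, 501 and 609 CPM in Sox4. The groups did not overlap, but EV 1 lay just above Sox4 3, and EV 2 was 1.81 times EV 1. The log2 fold change was -0.88 (SE 0.32, adjusted p = 0.0112 by edgeR), and with library size alone it was -0.41 and did not pass (adjusted p = 0.148 by edgeR).

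Apoa4, an apolipoprotein that follows fat absorption and liver lipid, was the only member with a log2 fold change above 0. It stood at 33.5, 28.0 and 19.3 CPM in EV and at 28.6, 27.1 and 45.5 CPM in Sox4. The groups overlapped, and only Sox4 3 lay above all EV libraries. The log2 fold change was 0.32 (SE 0.33, adjusted p = 0.297 by edgeR), but it passed as higher with library size alone (0.79, adjusted p = 0.0223 by edgeR) and without the filter on low counts (0.36, adjusted p = 0.0462 by edgeR). In GENCODE M21 69.8% of the exonic bases of Apoa4 face antisense models, which had 38 counts in all.

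The neighbours on chromosome 9 thus did not change alike. Within each library the log2 ratio of Apoa4 to Apoc3 counts went from -5.72 ± 0.22 in EV to -3.38 ± 0.24 in Sox4, and that of Apoa5 to Apoc3 from -0.63 ± 0.56 to 0.53 ± 0.29. That of Apoa1 to Apoc3 was 1.87 ± 0.14 and 2.08 ± 0.22, and these groups overlapped. These pairs too were chosen after their values were seen, and no test is given.

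**Figure D3:**
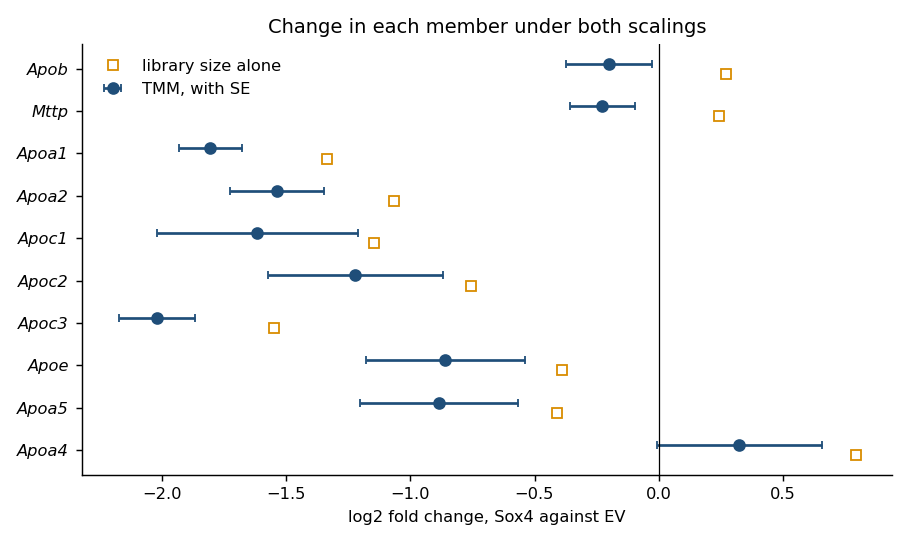
log2 fold change of Sox4 against EV for the 10 genes. Filled circles are TMM scaling with the SE over 3 libraries a group, and open squares library size alone. Apob moves from -0.20 to 0.27 and Mttp from -0.23 to 0.24 across 0, while Apoa1, Apoa2, Apoc1 and Apoc3 stay below -1 under either.

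As a share of all counts the 10 genes held 3.46%, 3.24% and 2.87% in EV and 2.72%, 2.25% and 2.27% in Sox4. The difference of -0.779 percentage points had p = 0.1, the smallest the exact permutation test allows (two-sided). Counts grow with transcript length, so shares of counts are not shares of molecules. Within the 10, Apob went from 22.4% ± 3.5 to 36.0% ± 9.8 of counts, though Sox4 1 (24.7%) lay below EV 3 (26.4%). Apoa1 went from 13.5% ± 0.76 to 7.04% ± 0.48, Apoa2 from 10.9% ± 0.13 to 6.85% ± 0.79, and Apoc3 from 3.69% ± 0.15 to 1.68% ± 0.30, with no overlap. Apoe held 41.5% in both groups (± 4.6 and ± 9.6).

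Other apolipoprotein genes also stood lower, with 8 of 9 tested past the threshold and 0 higher (also 0 at an unadjusted p under 0.05, by DESeq2 and by both limma fits) and a median log2 fold change of -1.66. By library size alone 7 were lower and 1, Clu, was higher. Saa2 (-3.58, SE 0.56, adjusted p = 9.98e-05 by edgeR) and Saa1 (-3.50, SE 0.88, 0.00686), the acute phase serum amyloid A genes, had the largest falls. Saa1 went from 749, 565 and 417 counts in EV to 152, 59 and 18 in Sox4. Apon stood at 468, 456 and 440.1 CPM in EV and at 66.7, 61.1 and 54.5 CPM in Sox4, a log2 fold change of -2.90 (SE 0.09). Apom, which carries sphingosine phosphate on high density lipoprotein, was at -1.83 (SE 0.22). Clu, a stress-related apolipoprotein, was at 0.11 and did not pass, and Apod had no count in any library.

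Genes that load and export the particle were mixed, with 7 of 15 lower, 2 higher and a median of -0.34. These became 3 lower and 3 higher with library size alone, at a median of 0.13. P4hb, the disulfide isomerase that is the partner subunit of microsomal triglyceride transfer protein, stood at 1990.3, 2020.02 and 1845 CPM in EV and at 895, 777 and 736 CPM in Sox4. Its log2 fold change was -1.28 (SE 0.09, adjusted p = 6.38e-05 by edgeR), and it passed under both scalings. Dgat2, which makes triglyceride, was at -1.05, and Mia3 (-0.78), an export receptor, and A1cf (-0.66, not past the threshold with library size alone), a cofactor of Apob mRNA editing, were also lower. Dgat1 (0.32) and Abca1 (0.39), the cholesterol exporter that lipidates apoA-I, were higher, but 0 or 1 of the list passed as higher when any library was left out, and 1 by DESeq2. Sar1b, which forms the coat of the export vesicle, was at 0.00.

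Among receptors and uptake genes 4 of 9 tested were lower and 2 higher (median -0.19). These became 2 lower and 3 higher with library size alone, at a median of 0.28. Lrp1, a remnant receptor, stood at 1289, 1368 and 1229 CPM in EV and at 861, 778 and 758 CPM in Sox4. Its log2 fold change of -0.70 (SE 0.07, adjusted p = 0.00176 by edgeR) became -0.23 with library size alone and did not pass there (adjusted p = 0.161 by edgeR). Vldlr (1.57) and Sort1 (0.84) were higher, and without EV 1 only 1 of the list was.

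Of 9 genes that remodel particles in plasma, 4 were lower and 1 higher (median -0.44, and 0.03 with library size alone, where also 4 were lower and 1 higher). Pltp, the phospholipid transfer protein, was at -2.48 (SE 0.24), Lipc, hepatic lipase, at -1.34 (SE 0.18), and Lcat, which esterifies cholesterol, at -1.10 (SE 0.11). Lpl, lipoprotein lipase, stood at 15.7, 27.7 and 21.6 CPM in EV and at 69.8, 35.1 and 134 CPM in Sox4, and the log2 fold change was 1.88 (SE 0.60, adjusted p = 0.0256 by edgeR). The Lpl call was lost without EV 3, without Sox4 1 and without the filter on low counts, and 2 genes were higher with the replicate block.

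Of 14 transcription factors that regulate these genes, 8 were lower and 0 higher, with a median of -0.51 (0 also at an unadjusted p under 0.05, by DESeq2 and by both limma fits). By library size alone 4 were lower and 1, Foxa2, was higher, at a median of -0.05. Without EV 1, without the filter and with the replicate block 1 was higher too. Srebf1 (-1.66), a sterol and lipogenic regulator, Mlxipl (-1.24), a carbohydrate sensor, Rxra (-1.19), the partner of many nuclear receptors, and Nr1h3 (-0.91), a sterol sensor, were the lowest. Hnf4a, a main activator of apolipoprotein genes, stood at 645, 805 and 789 CPM in EV and at 538, 479 and 466 CPM in Sox4. Its log2 fold change of -0.60 (SE 0.12, adjusted p = 0.00580 by edgeR) became -0.12 with library size alone and did not pass there (adjusted p = 0.456 by edgeR).

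**Figure D4:**
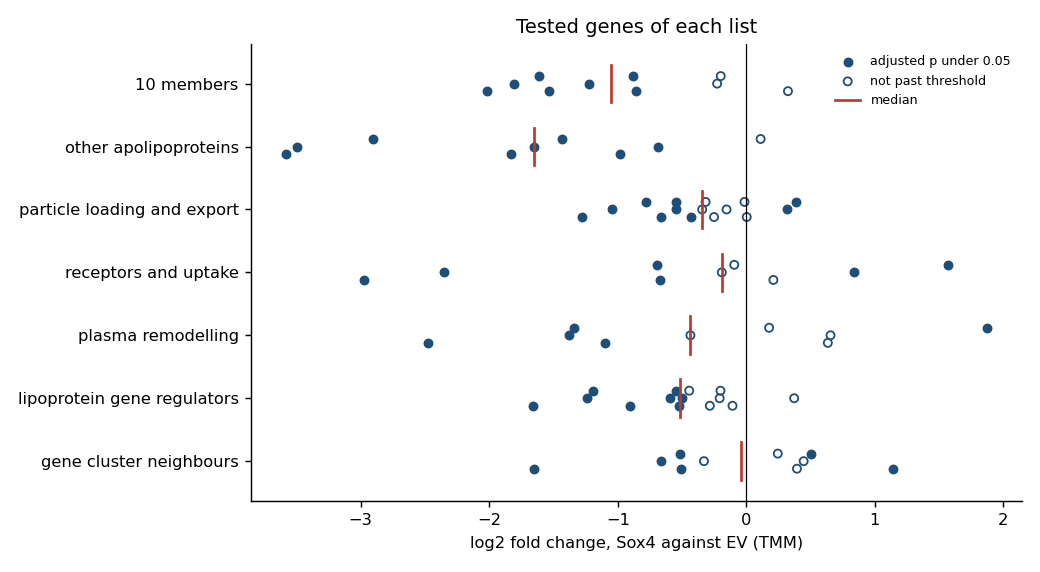
log2 fold change of each tested gene (TMM) by list, with the 10 members at the top. Filled points passed an adjusted p of 0.05, open points did not, and red lines are medians. The medians of the members (-1.05) and of other apolipoproteins (-1.66) sit left of the other lists plotted, and the cluster neighbours lie around 0 (-0.04).

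Genes that neighbour the members did not move as a group. Of 10 tested neighbours 4 were lower and 2 higher (median -0.04), against 1 lower and 4 higher with library size alone (median 0.43). Apoc4, 1 of the 4, lies within the chromosome 7 cluster between Apoc2 and Apoc1 and is also counted above among the other apolipoproteins. Apoc4 stood at 398, 316 and 238 CPM in EV and at 160.1, 61.7 and 80.1 CPM in Sox4. Its log2 fold change was -1.66 (SE 0.46, adjusted p = 0.00882 by edgeR). Sidt2 (-0.67), Tomm40 (-0.52) and Sik3 (-0.51) were lower with TMM and did not pass with library size alone. Sik3 is next to Apoa1, at one end of the chromosome 9 cluster. Zpr1 (0.50), at the other end, and Pafah1b2 (1.14), which lies beyond Sik3, were higher under both.

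The genes whose profile over the 6 libraries lay closest to that of Apoc3, by the distance of centred log2 CPM over 9016 genes whose mean count reached 100, were Nr1i3 (distance 0.164), Nrbp2 (0.192) and Atg16l2 (0.208). Those closest to Apoa4 were Ccdc141 (0.215), Taok3 (0.293) and Arl6ip6 (0.314). The libraries share their scaling, so this is a description.

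Markers of Kupffer cells, stellate cells and cholangiocytes were at low levels in all libraries, with higher sums in Sox4. The summed level of Kupffer cell markers ranged over 13.4 to 28.8 CPM for EV against 29.1 to 67.9 CPM for Sox4 (4 of 9 tested higher), that of stellate markers over 8.94 to 47.0 against 86.4 to 143 CPM (3 of 5 higher), and that of cholangiocyte markers over 10.02 to 21.9 against 48.5 to 59.0 CPM (2 of 3 higher). Most of the stellate sum was Reln, at 7.09, 22.6 and 37.5 CPM in EV and 126, 117 and 50.8 CPM in Sox4. Without Reln the stellate sum was 1.85, 4.56 and 9.44 CPM in EV and 8.62, 25.9 and 35.6 CPM in Sox4, so Sox4 1 lay within the EV range. In Sox4 most of the cholangiocyte sum was Spp1, at 39.7, 41.4 and 35.2 CPM, against 4.85, 4.02 and 6.83 CPM in EV. Sox9, the largest in EV, overlapped between groups (5.92 to 16.9 CPM in EV, 9.27 to 15.8 CPM in Sox4) and did not pass. None of these 3 lists had a gene lower, also at an unadjusted p under 0.05. Endothelial markers ranged over 14.02 to 21.0 against 11.7 to 26.5 CPM (2 of 6 higher, 1 lower). Scaled by library size alone, the higher calls were 8 of 9 for Kupffer, 4 of 5 for stellate, 2 of 3 for cholangiocyte and 2 of 6 for endothelial markers, and the lower endothelial call was lost. Krt7 and Krt19, which define cholangiocytes, had no count in EV, and in Sox4 Krt7 had 2, 1 and 7 counts and Krt19 9, 2 and 7. Leaving out 1 library moved the higher calls to between 3 and 10 for Kupffer markers (10 without Sox4 1), 1 and 6 for stellate markers (1 without EV 2 or Sox4 2, 5 without EV 3, 6 without Sox4 1) and 0 and 2 for endothelial markers (0 without EV 1, EV 3, Sox4 2 or Sox4 3, 1 without EV 2). The endothelial gene called lower was lost without EV 2, EV 3, Sox4 1 or Sox4 2. Hepatocyte markers ranged over 107364 to 130003 CPM for EV against 77366 to 88843 CPM for Sox4, and 6 of 8 were lower, at a median log2 fold change of -1.37, below the -1.05 of the 10 members. Most of that sum was Alb, at 84584, 108451 and 104537 CPM in EV and 61968, 64601 and 73005 CPM in Sox4. The Alb log2 fold change was -0.58 (adjusted p = 0.0245 by edgeR). With library size alone it was -0.10 and did not pass (adjusted p = 0.627 by edgeR). By library size alone 5 of the 8 were lower, at a median of -0.90, against -0.58 for the members. The part of these markers in the fall of the apolipoprotein genes was not tested.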

How the data were processed

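Hepatocytes were isolated by a stepwise liberase digestion and Percoll centrifugation, and sequenced on an Illumina NovaSeq. Per the submitters' processing notes, the authors aligned reads to GRCm39 with STAR 2.7.10b and counted them with featureCounts 2.0.1; the deposited counts are raw, per gene and library, while the annotation release, strand setting and treatment of shared reads were not given in the sources used here. The authors also deposited a normalized signal, the counts divided by a DESeq2 size factor per library. Counts were tested with edgeR 4.0.16 (R 4.3.3; TMM, filterByExpr with a minimum count of 10, robust quasi-likelihood F test, Sox4 against EV, Benjamini-Hochberg over 12691 genes), with group and replicate taken from the labels. The SE is that of the difference in group mean log2 CPM with a prior count of 2. The 10 members, the gene lists and the motifs were chosen with earlier results of these data known. All members are described, and from each other list up to 4 genes with the largest change past the threshold in each direction, plus those whose role a sentence needed. Some genes of these lists enter the counts but are not reported here by name. Alternatives were DESeq2 size factors, library size alone, no filter (at least 1 count), a mean count of at least 50, DESeq2 1.42.0, limma-voom and limma on the deposited values plus 1 (limma 3.58.1), a replicate block and leaving out each library. Replicates were compared, and library pairs differed by more than counting noise (chi-square per degree of freedom from 17.6 to 62.7). Per the study, the libraries of each group came from 3 animals, although the labels name no animal. A count of 3 or fewer was taken as the floor, at most 0.231 CPM, which covers counting error only. The script was tested on simulated data. The counts' build has no annotation among the references used here, so no level per length is given, and overlaps and promoters come from GRCm38. Figures were drawn with matplotlib 3.10.9.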

Additional observations from a re-analysis of the deposited data

How the results depend on the processing

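All member calls kept their direction under DESeq2 size factors, DESeq2, both limma fits and a mean count of at least 50, which left Apoc2 untested. With library size alone 4 members were lower and 1 higher, Apob was at 0.27 and Mttp at 0.24, and the median of all genes was 0.51; 79.9% of all calls were then higher, against 52.7% with TMM. Without the filter on low counts 1 member was higher. The number of genes past the threshold was 6990 with TMM, between 5937 (mean count of at least 50) and 8092 (library size alone) elsewhere, and 6027 to 7269 with 1 library left out. With the replicate block 7362 genes passed and 7 members were lower and 0 higher, so no member's call changed. Same-numbered libraries correlated at 0.27, -0.09 and 0.13 in their deviations from group means. Libraries of different number were not compared in this way, so these values cannot decide whether the numbers pair libraries. With 1 library left out 5 to 6 members were lower and 0 higher. The Sox4 minus EV share within the members, -0.0026 for Apoa5 and -0.014 for Apoe, ran from -0.455 to 0.397 percentage points for Apoa5 and from -5.43 to 3.76 for Apoe, so neither has a direction. The cause was not tested. Apoc2 had only 12 to 36 counts, which cannot be taken as a level of its mRNA, and groups of 3 cannot reach an exact p under 0.1.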
